A study of Mus musculus with 6 samples.

Results

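Thyroid hormone handling and action in the newborn mouse retina were followed through 8 genes, out of 39179 gene rows in each of the 6 deposited count files. They are the deiodinases Dio3 and Dio2, the transporter gene Slc16a10, the thyroid hormone receptor genes Thra and Thrb, and the retinoid X receptor genes Rxra, Rxrb and Rxrg. They were taken by name, and each was read as CPM (gene counts scaled to a common library total, with TMM factors) in Lhx2 conditional knockout (cKO) and control retinas, with library set as a term. Since this difference between genotypes was known when the genes were chosen, it is described for them and no p-value is given. All 8 were present in every file and passed the filter on low counts. The data are bulk RNA-seq of whole retinas at postnatal day 0.5, from mice of mixed background that was mainly CD-1. The 3 cKO mice carried Lhx2 lox/lox and Pdgfrα-Cre, in which the Pdgfra promoter drives the Cre recombinase. The 3 controls carried the same Lhx2 lox/lox alleles, with no Cre in their genotype label, and are titled WT. The libraries are cKO 1, 2 and 3 and control 2, 3 and 4, numbered as labelled.

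Thyroid hormone reaches cells mostly as the prohormone thyroxine (T4), which membrane carriers, among them members of the SLC16 family, pass into the cell. The enzyme encoded by Dio2 removes an outer-ring iodine and makes the active hormone triiodothyronine (T3), whereas the enzyme encoded by Dio3 removes an inner-ring iodine and inactivates both hormones. T3 binds nuclear receptors from Thra and Thrb, which sit on DNA mostly as heterodimers with an RXR. In the mouse retina the Thrb isoform TRβ2 and Rxrg act in cone precursors, where they restrain S opsin and, for TRβ2, allow M opsin, and Dio3 protects immature cones from excess hormone.

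The stretch of coding sequence that defines each kind of member is shown to tell the genes apart, read from GENCODE vM21 transcripts on GRCm38. Deiodinases are selenoproteins, and their active site is coded by a TGA triplet that is read as selenocysteine. This triplet is in capitals, with 30 bases of the coding exon on either side. It is codon 170 of 304 in Dio3 (chr12:110279709-110279771, plus strand) and codon 130 of 266 in Dio2 (chr12:90729793-90729855, minus strand).
Dio3: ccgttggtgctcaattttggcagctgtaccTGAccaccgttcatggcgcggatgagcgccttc
Dio2: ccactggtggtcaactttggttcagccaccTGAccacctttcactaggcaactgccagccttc
The windows have 41 of 63 bases in common (65.1%), and the 2 genes share no run of 30 coding bases.

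For the receptors the capitals mark the 18 bases of the P-box, the part of the first zinc finger that reads the DNA half-site, with 15 coding bases on either side. The windows of Thra (chr11:98756994-98760893, plus strand) and Thrb (chr14:18002599-18008586, plus strand) span an intron that is left out of the printed sequence. Those of Rxra (chr2:27741772-27741819), Rxrb (chr17:34034030-34034077) and Rxrg (chr1:167627300-167627347) lie in 1 exon each, on the plus strand.
Thra: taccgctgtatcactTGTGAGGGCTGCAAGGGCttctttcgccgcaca
Thrb: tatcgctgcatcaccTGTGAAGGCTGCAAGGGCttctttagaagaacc
Rxra: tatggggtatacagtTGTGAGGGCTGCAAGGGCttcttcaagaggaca
Rxrb: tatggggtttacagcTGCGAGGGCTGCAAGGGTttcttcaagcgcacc
Rxrg: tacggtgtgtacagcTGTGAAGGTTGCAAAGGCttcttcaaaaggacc
Thra and Thrb had the same base at 39 of 48 positions (81.2%). Within the RXR genes the count was 41 for Rxra and Rxrb, 39 for Rxra and Rxrg and 37 for Rxrb and Rxrg. Pairs of a thyroid hormone receptor and an RXR had 29 to 34 positions in common. No pair of these receptor genes shared a run of 30 coding bases.

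The libraries held 50960595, 66947478 and 31483170 gene counts in cKO 1, 2 and 3, and 43854446, 35813377 and 32698665 in control 2, 3 and 4. They fell into 2 sets by the share of counts that were ambiguous between genes, 3.13 to 3.20% for cKO 1, cKO 2 and control 2 (set A) and 2.63 to 2.69% for cKO 3, control 3 and control 4 (set B). No label marks this split. Y-linked genes showed that all 3 cKO mice and control 3 were female and that controls 2 and 4 were male. Lhx2 stood at 252, 287 and 224 CPM in cKO 1, 2 and 3, against 399, 266 and 258 CPM in control 2, 3 and 4, a log2 difference of -0.40 (SE 0.10, edgeR adjusted p = 0.0338). This call was absent with control 2, control 3, cKO 2 or cKO 3 left out (adjusted p of 0.0602 to 0.414), with genotype alone (0.817) and with sex added (0.371). Which exons of Lhx2 were deleted is not stated in the labels, so reads outside them may be counted. Pdgfra, whose promoter drove Cre, had a log2 difference of -0.01 (adjusted p = 0.968). Retinal markers such as Crx were summed at 2949 to 4171 CPM in cKO and 3644 to 4503 CPM in control libraries, so the tissue label fits its markers. Beside them, lens markers summed to 859 to 2289 CPM in cKO and 2.51 to 5.51 CPM in control libraries, with 11 of 11 tested higher. Blood and microglial markers summed to 58.3 to 89.7 CPM in cKO and 15.6 to 42.4 CPM in control libraries, with 5 of 7 higher. Of 7 tested markers of hypothalamus and tanycytes, 2 were higher (Otp and Sim1), 1 was lower (Rax, also a retinal marker) and 4 did not pass. Otp had 6.78, 4.31 and 15.4 CPM in cKO 1, 2 and 3, against 0.066, 0.030 and 0.13 CPM in control 2, 3 and 4. Otp and Sim1 were named after their values were seen.

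Among the members, Thra and Rxrg were higher and Dio3 and Rxra lower in cKO retinas past the threshold of adjusted p under 0.05, while Dio2, Thrb, Rxrb and Slc16a10 did not pass. That makes 4 of 8 members, beside 12.0% of the 16691 genes tested, with 2 members higher beside 6.36% of genes and 2 members lower beside 5.63%. Because these calls helped to choose the genes, nothing is read from their number. With genotype alone in edgeR's model 0 members passed, beside 0.216% of all tested genes, and 2 members had an unadjusted p under 0.05. Dio3 had the largest difference of the 8 genes, and Rxrg the largest of those that were higher. Dio3 was also the only 1 of the 8 whose cKO and control libraries did not overlap in CPM over all 6 libraries, a property of 13.9% of all tested genes. Within each library set, 5 of 8 members had every cKO library on the same side of every control in both sets, beside 46.7% of all tested genes.

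**Figure D1:**
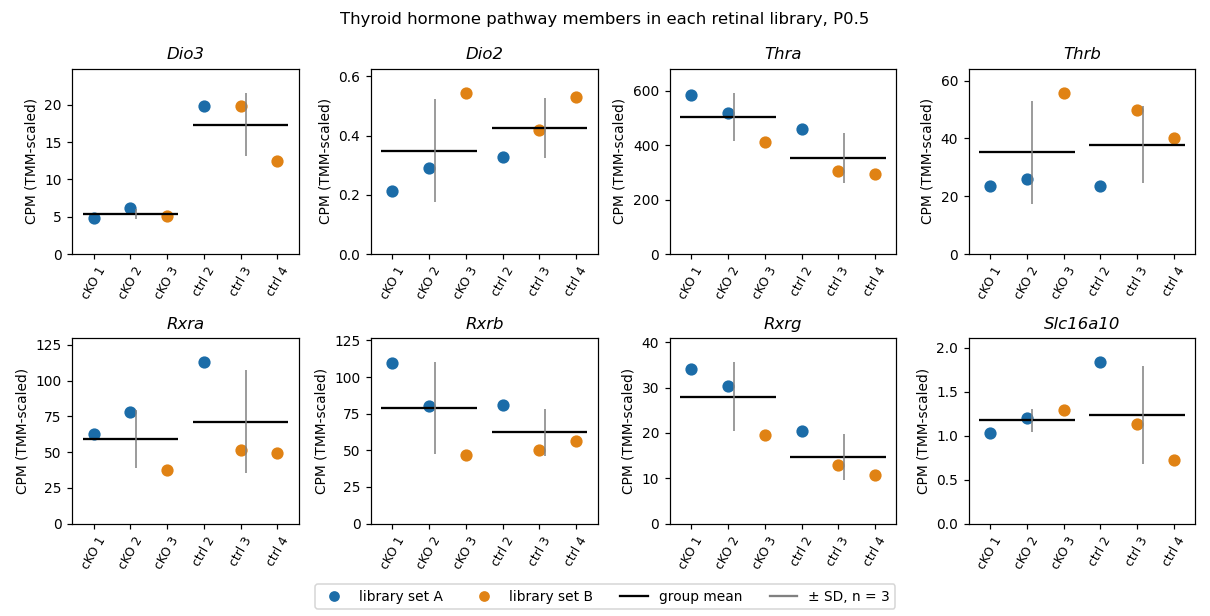
CPM of each member in the 3 cKO libraries (left) and the 3 control libraries (right), on linear axes that start at 0. Points are libraries coloured by set, black lines are group means and grey lines are ± SD (n = 3). Dio3 lies at 4.87 to 6.18 CPM in cKO and 12.4 to 19.8 CPM in control libraries, and most other members shift between sets A and B as well as between genotypes.

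**Figure D2:**
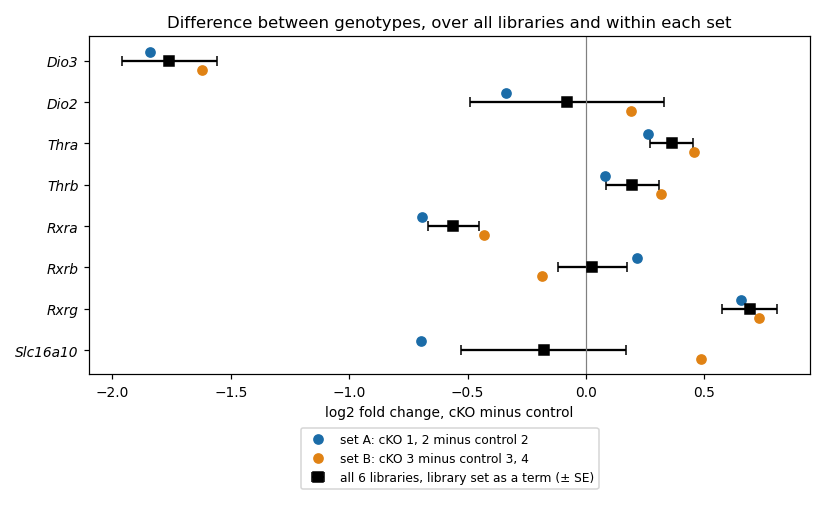
Log2 fold change of each member, cKO minus control, with the squares giving the fit over all 6 libraries with library set as a term (± SE) and the circles the difference within each set. Dio3 and Rxra lie below 0 and Thra, Thrb and Rxrg above 0 in both sets, while Dio2, Rxrb and Slc16a10 change sign between sets.

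Dio3, which encodes the type 3 deiodinase that inactivates T4 and T3, was lower in every cKO retina. Dio3 (ENSMUSG00000075707, GRCm38 chromosome 12, 110279068 to 110281097, plus strand) had 4.87, 6.18 and 5.07 CPM in cKO 1, 2 and 3, against 19.8, 19.8 and 12.4 CPM in control 2, 3 and 4. The highest cKO library was below the lowest control, and the cKO libraries of both sets were close together. These values rested on 273, 447 and 149 reads in the cKO and 905, 662 and 375 reads in the control libraries. The group means were 5.37 ± 0.70 CPM in cKO and 17.3 ± 4.25 CPM in control retinas (SD, n = 3 each), and the log2 fold change was -1.76 (SE 0.20). It was -1.84 within set A and -1.62 within set B, and the pair of female libraries in set B, cKO 3 and control 3, gave -1.96. Whether fewer cells with Dio3 or less Dio3 RNA per cell gave these values cannot be told apart in bulk tissue, here or for any gene named after it.

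Progenitor markers moved in the same direction as Dio3. Their summed level was 4276 to 5956 CPM in cKO and 7823 to 8219 CPM in control libraries, with 8 of 12 lower and 1 higher (Lhx2 is itself on the list), and their part in the Dio3 difference was not tested. The Dio3 call held with each library left out in turn and with sex added to the model, and was lost without the library set term, where the log2 fold change was -1.69 (SE 0.26). Since the difference was known when the genes were chosen, calls of members under other fits are description and no separate evidence.

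Dio2 (ENSMUSG00000007682, GRCm38 chromosome 12, 90724552 to 90738438, minus strand), which encodes the activating deiodinase, was barely detected. It had 0.21, 0.29 and 0.54 CPM in cKO 1, 2 and 3, against 0.33, 0.42 and 0.53 CPM in control 2, 3 and 4, on 12 to 21 reads per library. The groups overlapped fully. Exact Poisson 95% intervals, which cover counting error only, reached from 0.11 to 0.37 CPM in cKO 1 and from 0.18 to 0.54 CPM in control 2. The log2 fold change was -0.08 (SE 0.41), and no difference was detectable at this depth.

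Per kilobase of exon, the ratio of Dio3 to Dio2 was 65.2, 61.0 and 26.7 in cKO 1, 2 and 3, against 173, 135 and 67.1 in control 2, 3 and 4. Thus the level of the inactivating enzyme's transcript exceeded that of the activating one in all 6 libraries. Dio1, the other deiodinase gene, stayed at or below 0.041 CPM in each cKO and 0.033 CPM in each control library.

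The promoter of Dio3 is shown because this member had the largest difference. RefSeq's promoter table (GRCm38.p6) matched 7 of 8 members, all but Thra, with 11 starts. The 250 bases before the Dio3 start (chr12:110278980-110279229, plus strand) carry a TATAAA box in capitals that begins 31 bases upstream of that start.
Dio3 promoter: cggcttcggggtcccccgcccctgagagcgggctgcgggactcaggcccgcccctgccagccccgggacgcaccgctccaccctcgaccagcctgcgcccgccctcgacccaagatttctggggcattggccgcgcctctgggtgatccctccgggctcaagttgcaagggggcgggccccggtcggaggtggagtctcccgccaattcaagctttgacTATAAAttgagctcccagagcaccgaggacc
The GENCODE model of Dio3 begins inside this window, at 110279068, which is upstream of the TATAAA. By that model the box lies within the first exon, and its place before the start holds for the RefSeq start alone. Each of 3 motifs was searched on both strands, and none overlaps another in these windows. TATAAA, the core of the TATA box, is in 12.4% of 32851 promoters of this length. Dio2 also has it, 30 bases upstream of its RefSeq start, as does 1 of the Thrb windows, 167 bases upstream. The GENCODE model of Dio2 begins further downstream, at 90738438, so this place too holds for the RefSeq start alone. TAATTA, a homeodomain core, is in 4.84% of promoters and in none of the 11 member windows. AGGTCA, the half-site read by receptors such as TR and RXR, is in 14% of promoters. Among the members it is in windows of Thrb, Rxra and Rxrg. These are matches of letters and show no binding.

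The transporter gene of the set, Slc16a10, did not pass the threshold. Slc16a10 (ENSMUSG00000019838, GRCm38 chromosome 10, 40033532 to 40142258, minus strand) encodes MCT10, a carrier of aromatic amino acids and T3. It had 1.03, 1.20 and 1.29 CPM in cKO 1, 2 and 3, against 1.84, 1.14 and 0.73 CPM in control 2, 3 and 4. The controls alone spread over a wider range than the cKO libraries, which lay inside it. The log2 fold change was -0.18 (SE 0.35), with -0.70 in set A alone and 0.49 in set B alone.

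Among other thyroid hormone carriers, Slc7a8 and Slco2b1 rose in cKO retinas. Of 11 genes listed as transporters and amino acid carriers of the hormone, 7 could be tested, of which 2 rose and 4 did not pass, with a median log2 fold change of 0.09 beside 0.00 over all tested genes. Of all tested genes 6.36% were higher, and 13.9% had no overlap between the groups. Slc7a8, a light chain of heteromeric amino acid carriers that also moves thyroid hormone, had 13.9, 16.3 and 14.3 CPM in cKO 1, 2 and 3, against 9.14, 4.40 and 4.57 CPM in control 2, 3 and 4. The groups did not overlap, and Slc7a8 rose by a log2 difference of 1.18 (SE 0.20, edgeR adjusted p = 0.00818). Slco2b1, an organic anion transporter that is also a transcript of microglia and vessels, had 1.53, 1.82 and 2.86 CPM in cKO 1, 2 and 3, against 0.52, 0.45 and 0.99 CPM in control 2, 3 and 4. Its log2 fold change was 1.84 (SE 0.35, adjusted p = 0.0117), again without overlap. Microglial Csf1r, at 18.7, 21.7 and 10.3 CPM in cKO and 10.3, 3.98 and 2.78 CPM in control libraries, and endothelial Cdh5, at 4.21, 6.87 and 21.1 CPM in cKO and 1.81, 3.08 and 3.98 CPM in control libraries, were higher with it. Of 9 tested endothelial markers 6 were higher and 1 lower, with a summed level of 279 to 484 CPM in cKO and 540 to 702 CPM in control libraries, most of it Kdr, and the part of either cell type in the Slco2b1 difference was not tested.

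The next carriers by p, Slco3a1 and Slco4a1, had log2 fold changes of 0.19 (adjusted p = 0.508) and -0.19 (adjusted p = 0.545). The calls were lost for Slco2b1 without control 2 (adjusted p = 0.0533) or cKO 3 (0.167), and for Slc7a8 without cKO 3 (0.115).

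Thra was the most abundant member per length and was higher in cKO retinas within each library set. Thra (ENSMUSG00000058756, GRCm38 chromosome 11, 98740638 to 98769006, plus strand) encodes the receptor TRα1 and the variant TRα2, which does not bind T3, and gene counts do not separate them. It had 587, 517 and 412 CPM in cKO 1, 2 and 3, against 459, 307 and 293 CPM in control 2, 3 and 4. The groups overlapped because control 2, of set A, was above cKO 3, of set B. The group means were 505 ± 88.1 CPM in cKO and 353 ± 92.2 CPM in control retinas (SD, n = 3 each), and the log2 fold change was 0.36 (SE 0.09), with 0.26 in set A alone and 0.46 in set B alone. Of the exon bases of Thra, 263 (5.70%) overlap Nr1d1 on the other strand, and whether reads were counted by strand is not stated in the sources used here. Nr1d1 had 55.6, 69.9 and 21.2 CPM in cKO 1, 2 and 3 and 77.6, 26.2 and 23.3 CPM in control 2, 3 and 4, with a log2 difference of -0.27 (adjusted p = 0.165). The Thra call was lost without control 2, 3 or 4 and without cKO 3. It was also lost with sex added to the model, with the replicate number as a block and with genotype alone. The log2 fold changes were 0.29 to 0.52 over all alternatives.

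Thrb (ENSMUSG00000021779, GRCm38 chromosome 14, 17660261 to 18038090, plus strand), whose TRβ2 isoform is the cone receptor, did not pass the threshold. It had 23.6, 26.0 and 55.8 CPM in cKO 1, 2 and 3, against 23.4, 49.9 and 40.2 CPM in control 2, 3 and 4. The libraries grouped by set and not by genotype, with each set A library below each set B library. The log2 fold change was 0.20 (SE 0.11), with 0.08 in set A alone and 0.32 in set B alone. Cone markers summed to 355 to 640 CPM in cKO and 342 to 467 CPM in control libraries. Of 9 tested cone markers, 0 passed in edgeR, 2 were higher at an unadjusted p under 0.05, DESeq2 called 1 higher and limma-voom called 0, with 4 higher without a filter, 2 without cKO 1 and 1 each with the replicate block or without cKO 3.

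The RXR genes differed in 3 ways, with Rxrg higher, Rxra lower and Rxrb not past the threshold. Rxrg (ENSMUSG00000015843, GRCm38 chromosome 1, 167598384 to 167639623, plus strand), the RXR of cone precursors and of some ganglion cells, had 34.1, 30.4 and 19.5 CPM in cKO 1, 2 and 3, against 20.4, 12.9 and 10.7 CPM in control 2, 3 and 4. Within each set every cKO library was above every control, and over all 6 libraries control 2 was just above cKO 3. The group means were 28.0 ± 7.57 CPM in cKO and 14.7 ± 5.11 CPM in control retinas (SD, n = 3 each), and the log2 fold change was 0.69 (SE 0.12), with 0.66 within set A, 0.73 within set B and 0.60 between the female libraries of set B. Ganglion cell markers, such as Pou4f2, were higher with it, at a summed 2147 to 3088 CPM in cKO and 1413 to 1804 CPM in control libraries, with 11 of 12 past the threshold. Their part in the Rxrg difference was not tested.

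Rxra (ENSMUSG00000015846, GRCm38 chromosome 2, 27676440 to 27762957, plus strand), the broadly expressed RXR, had 62.8, 77.8 and 37.6 CPM in cKO 1, 2 and 3, against 113, 51.7 and 49.5 CPM in control 2, 3 and 4. The order within each set was the reverse of that of Rxrg, with every cKO library below every control. Group means were 59.4 ± 20.4 CPM in cKO and 71.4 ± 36.0 CPM in control retinas (SD, n = 3 each), so their difference was smaller than the spread within groups until the set was taken into account. The log2 fold change was -0.56 (SE 0.11), with -0.69 in set A alone and -0.43 in set B alone. The calls of Rxra and Rxrg were both lost without control 2, without cKO 3, with sex added to the model and with genotype alone. The fold changes over all alternatives were -0.66 to -0.26 for Rxra and 0.54 to 0.93 for Rxrg. Without control 2 or cKO 3 the genotypes are compared within 1 set alone.

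Rxrb (ENSMUSG00000039656, GRCm38 chromosome 17, 34031812 to 34038399, plus strand), the other widely expressed RXR, had 109, 80.2 and 46.8 CPM in cKO 1, 2 and 3, against 80.7, 50.2 and 56.4 CPM in control 2, 3 and 4. In set A the cKO libraries lay above and just below control 2, and in set B cKO 3 was below both controls. The log2 fold change was 0.03 (SE 0.15), with 0.22 in set A alone and -0.19 in set B alone.

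The make-up of the RXR transcripts showed the opposed differences of Rxrg and Rxra within single libraries, where scaling between libraries plays no part. Per kilobase of exon, Rxrg made up 27.6, 27.8 and 31.3% of the summed RXR level in cKO 1, 2 and 3, against 17.8, 20.3 and 16.7% in control 2, 3 and 4. Rxra made up 21.3, 29.9 and 25.3% in cKO 1, 2 and 3, against 41.5, 34.1 and 32.5% in control 2, 3 and 4. Neither share overlapped between the groups. The shares are parts of the same sum, so a higher share of Rxrg goes with lower shares of the others. They also restate values that were known when the genes were chosen, and nothing further is read from the lack of overlap. The Rxrb share was 45.6 ± 4.79% in cKO and 45.7 ± 5.07% in control retinas (SD, n = 3 each), with full overlap. The Thrb share of the summed Thra and Thrb level was 2.45, 3.04 and 7.78% in cKO 1, 2 and 3, against 3.08, 9.20 and 7.87% in control 2, 3 and 4, and followed library set. The summed RXR level was 0.41, 0.41 and 0.28 of the summed receptor level in cKO 1, 2 and 3, against 0.48, 0.38 and 0.41 in control 2, 3 and 4.

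**Figure D3:**
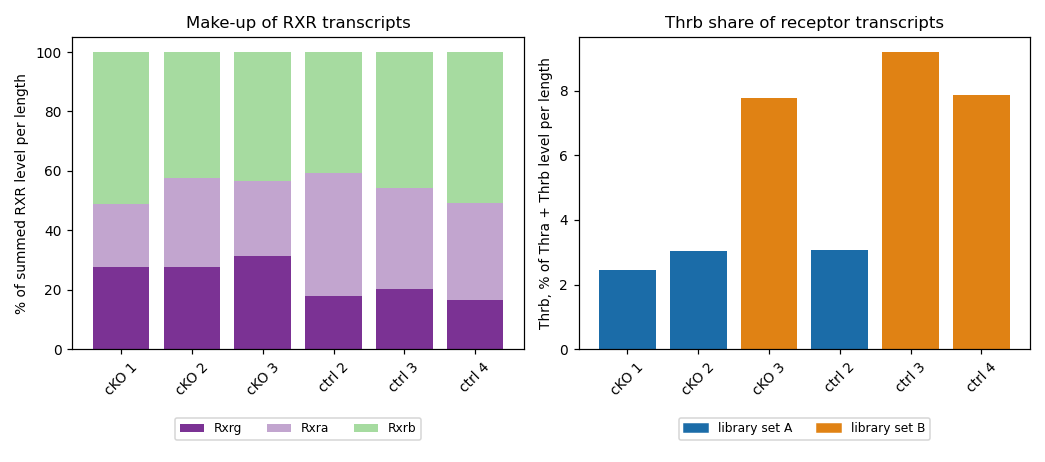
Left, the share of Rxrg, Rxra and Rxrb in the summed RXR level (CPM per kilobase of exon, %) of each library, cKO libraries before controls. Right, the Thrb share of Thra plus Thrb (%), with bars coloured by library set. Rxrg takes 27.6 to 31.3% in cKO and 16.7 to 20.3% in control libraries, while set A libraries have a Thrb share of 2.45 to 3.08% and set B libraries one of 7.78 to 9.20%.

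Levels per length spanned more than 3 orders of magnitude. In CPM per kilobase of exon, Thra averaged 109 ± 19.1 in cKO and 76.6 ± 20.0 in control retinas (SD, n = 3 each, as for the other levels), followed by Rxrb with 19.8 ± 7.88 in cKO and 15.7 ± 4.05 in control retinas. Below them Rxrg averaged 12.2 ± 3.30 in cKO and 6.39 ± 2.22 in control retinas, and Rxra averaged 10.9 ± 3.73 in cKO and 13.1 ± 6.59 in control retinas. Rxrg therefore stood at rank 3 in cKO and rank 5 in control retinas, although in cKO its mean differed from that of Rxra by less than the spread of either. Dio3 averaged 2.65 ± 0.35 in cKO and 8.54 ± 2.10 in control retinas, and Thrb 4.75 ± 2.42 in cKO and 5.11 ± 1.81 in control retinas. Dio3 was at rank 6 of the 8 genes in cKO and rank 4 in control retinas. Its neighbours in the control order, Rxra and Rxrg, did not differ from it beyond their spread, and in cKO retinas it lay within the spread of Thrb. Slc16a10 averaged 0.16 ± 0.018 in cKO and 0.17 ± 0.076 in control retinas, and Dio2 averaged 0.060 ± 0.030 in cKO and 0.073 ± 0.017 in control retinas. The same 2 genes were the lowest in both groups.

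**Figure D4:**
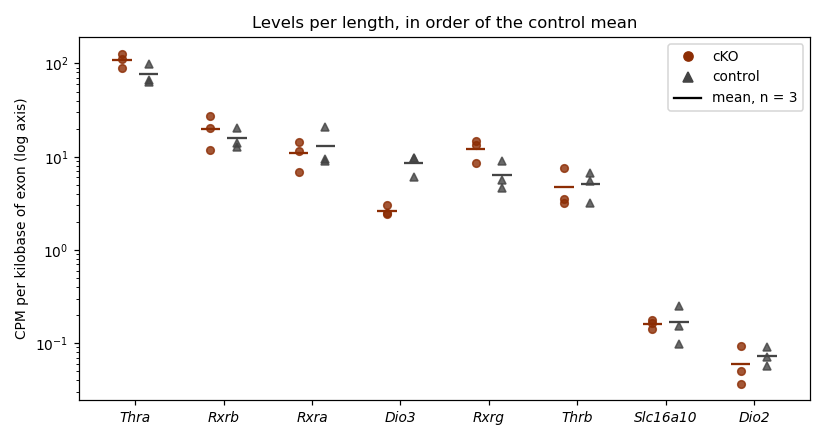
Level of each member in CPM per kilobase of exon, on a log axis, with cKO libraries as circles left of control libraries as triangles, lines at group means (n = 3) and genes in the order of their control means. Thra stands above all others in both groups, and Dio3 is the gene whose cKO and control points are clearly apart.

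The difference between library sets, which played no part in the choice of the genes, was tested for the members with genotype in the model. It passed for 5 of 8 members, beside 63.7% of all tested genes. Thra, Rxra, Rxrb and Rxrg were higher in set A (31.2% of genes) and Thrb was lower (32.5% of genes). Rxra averaged 84.5 CPM in set A and 46.2 CPM in set B, a log2 difference of 1.03 (SE 0.11, edgeR adjusted p = 4.23e-05). Thrb averaged 24.4 CPM in set A and 48.6 CPM in set B, a difference of -1.06 (SE 0.11, adjusted p = 4.72e-05). For Rxrb (0.81, adjusted p = 0.00118), Rxrg (0.76, adjusted p = 0.000428) and Thra (0.52, adjusted p = 0.000854) the estimate was larger than the one between genotypes. For Rxrg, however, the estimates for set (0.76) and genotype (0.69), with an SE of 0.12 each, differed by less than either SE. Dio3 (0.22, adjusted p = 0.362), Slc16a10 (0.40, adjusted p = 0.349) and Dio2 (-0.81, adjusted p = 0.114) did not pass. The 5 calls held in every alternative in which the set difference was fitted. A test of whether the genotype difference itself differed between sets passed for 4 genes in all, and for the members gave adjusted p of 0.975 to 0.993 with only 2 residual degrees of freedom.

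Over the 6 libraries, Thra and Rxrg ran most closely together of all pairs of members. Pearson's r of their log2 CPM was 0.99 as measured and 0.96 after each set's mean was subtracted. Dio3 and Rxra had an r of 0.36 as measured and 0.95 with set means subtracted, and Thrb and Rxrb had -0.95 as measured. These values are descriptions over 6 libraries that share genotype, set and depth differences. Among 12251 protein-coding genes, the 3 with the highest r with Dio3 were Paics (0.998), Prpf4 (0.993) and Lig1 (0.991). For Rxrg they were Psd2 (0.997), Calb2 (0.997) and Rbpms2 (0.997), for Thra they were Acaa2 (0.998), Cdk5r1 (0.997) and Smim14 (0.996), and for Rxra they were Rbm14 (0.997), Pbk (0.996) and Nnt (0.996). For Thrb they were Trhde (0.998), Rab10 (0.998) and Igf2r (0.996), and for Rxrb they were Use1 (0.999), Dus3l (0.999) and Zfp707 (0.998). The sparse Dio2 came closest to Cyyr1 (0.997), Armcx4 (0.995) and Arsb (0.994), and Slc16a10 to Cyfip1 (0.977), Arhgef17 (0.953) and Fbxo42 (0.952).

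Genes around the members were described through 8 lists from general knowledge, in which 104 genes stood and 89 could be tested. Of these, 7 rose, 6 fell and 76 did not pass, 13 called in all, with a median log2 fold change of 0.00. Over all 16691 tested genes 12.0% were called, 6.36% higher and 5.63% lower, and nothing is read from the number of list calls. The same shares stand beside the counts of each single list, and 13.9% of all tested genes had no overlap between the groups. With genotype alone in the model all 13 calls were lost, and with sex added to the library set 11 were lost while Slco2b1 and Dlk1 kept theirs. Genes that bind or metabolise the hormone or turn over deiodinases gave 0 calls of 8 tested in edgeR, with 2 higher and 1 lower at an unadjusted p under 0.05, while DESeq2 and limma-voom gave 0. Other fits did give calls, with 1 higher and 1 lower without a filter, 1 lower with the replicate block or without control 4, and 1 higher without control 2. The smallest p in this list belonged to Usp20, which encodes a deubiquitinase of the Dio2 enzyme, with a log2 difference of 0.29 (adjusted p = 0.0708). Crym, a cytosolic T3-binding protein, came next at -2.07 (SE 0.73, adjusted p = 0.108), with 71.2, 80.3 and 2.48 CPM in cKO 1, 2 and 3, against 177, 6.58 and 50.0 CPM in control 2, 3 and 4. Crym thus varied more within groups than between them, and its call depended on the fit. It passed without a filter (-2.10, SE 0.13, adjusted p = 1.9e-60), with the replicate block (-1.22, adjusted p = 0.0014) and without control 4 (-1.28, adjusted p = 0.00139). The SE without a filter was far below the 0.73 of the main fit although the counts of Crym were the same. That small p is therefore not read as firmer evidence. Of the 8 genes for selenoprotein synthesis, on which all deiodinases depend, edgeR called 0, with 2 lower at an unadjusted p under 0.05, while DESeq2 called 2 lower and limma-voom 0. RLE scaling, no filter and leaving out cKO 1 gave 1 lower each, and the replicate block gave 1 higher. Sephs1 (-0.28, adjusted p = 0.0562) and Eefsec (-0.32, adjusted p = 0.101) had the smallest p.

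Among 16 receptor coregulators 1 fell and 15 did not pass, with a median log2 fold change of -0.19. The one that fell was Hr, a corepressor of thyroid hormone receptors that is itself a T3 target. Hr had 4.75, 5.14 and 2.08 CPM in cKO 1, 2 and 3, against 7.82, 6.31 and 6.89 CPM in control 2, 3 and 4, without overlap, a log2 difference of -1.11 (SE 0.24, edgeR adjusted p = 0.0211). Gps2 of the NCoR complex (-0.32, adjusted p = 0.0522) and the coactivator gene Ncoa1 (-0.35, adjusted p = 0.108) came next. Of 10 tested genes for other RXR partners, 1 fell and 9 did not pass. Rara, the retinoic acid receptor alpha gene, had 48.2, 54.9 and 50.9 CPM in cKO 1, 2 and 3, against 74.8, 59.0 and 59.2 CPM in control 2, 3 and 4, and fell by 0.38 log2 units (SE 0.10, adjusted p = 0.0426). Ppard (-0.28, adjusted p = 0.158) and Nr1i3 (0.72, adjusted p = 0.285) did not pass.

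Textbook T3-responsive genes did not move in 1 direction. Of 12 tested, 1 rose, 2 fell and 9 did not pass, with a median log2 fold change of 0.12. Hr, above, and Klf9 were the 2 that fell. Klf9, a zinc finger transcription factor with a T3 response element, had 20.2, 23.4 and 29.0 CPM in cKO 1, 2 and 3, against 36.6, 40.6 and 33.1 CPM in control 2, 3 and 4, a log2 difference of -0.55 (SE 0.13, adjusted p = 0.0275). Me1, the malic enzyme that T3 induces in liver, had 23.5, 26.7 and 20.0 CPM in cKO 1, 2 and 3, against 18.1, 14.7 and 15.1 CPM in control 2, 3 and 4, and rose by a log2 difference of 0.46 (SE 0.11, adjusted p = 0.0277). The groups did not overlap for either gene. Gpd2 (0.25, adjusted p = 0.217) and Nrgn (0.29, adjusted p = 0.431) did not pass.

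Leaving out single libraries ended calls in these lists. Klf9 lost its call without control 2 (adjusted p = 0.34), control 3 (0.0791) or cKO 3 (0.0738), and Hr without control 3 (0.0656), control 4 (0.0513) or cKO 3 (0.208). Rara and Me1 kept theirs in 1 of 6 such fits each, the one without cKO 1, with adjusted p of 0.0632 to 0.45 for Rara and 0.0757 to 0.199 for Me1 in the others. Hr and Rara also lost their calls with the replicate number as a block.

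Of 22 tested genes of cone fate and opsins, 1 rose, 2 fell and 19 did not pass, with a median log2 fold change of 0.03. Otx2, a homeobox gene that sets photoreceptor fate, had 273, 293 and 284 CPM in cKO 1, 2 and 3, against 339, 408 and 474 CPM in control 2, 3 and 4, and fell by 0.45 log2 units (SE 0.11, adjusted p = 0.0317). Prdm1, which acts downstream of it to hold photoreceptor over bipolar fate, had 76.5, 102 and 129 CPM in cKO 1, 2 and 3, against 126, 188 and 170 CPM in control 2, 3 and 4, with -0.48 (SE 0.12, adjusted p = 0.0297). Otx2 was lower without overlap, while Prdm1 in cKO 3 reached just above control 2. Nr2f2, a nuclear receptor gene of dorsal-ventral opsin patterning, had 77.4, 82.5 and 133 CPM in cKO 1, 2 and 3, against 63.3, 78.9 and 83.8 CPM in control 2, 3 and 4, and rose by a log2 difference of 0.52 (SE 0.10, adjusted p = 0.0118), with overlap between the groups. Gnat2 (0.43, adjusted p = 0.0702) and Pde6c (0.79, adjusted p = 0.0946), genes of cone phototransduction, did not pass.

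Opn1sw, the S opsin gene, was chosen after its values were seen, because Thrb and Rxrg products repress it. It had 157, 125 and 48.2 CPM in cKO 1, 2 and 3, against 82.3, 47.6 and 53.5 CPM in control 2, 3 and 4, and did not pass (0.36, adjusted p = 0.259). The M opsin gene Opn1mw was at or below 0.071 CPM in cKO and 0.066 CPM in control libraries and was not tested. Otx2 lost its call without control 3 (adjusted p = 0.103), control 4 (0.0856) or cKO 3 (0.455), Nr2f2 without cKO 3 (0.201), and Prdm1 without control 2 (0.19), control 3 (0.0948), control 4 (0.0541) or cKO 3 (0.208).

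Dio3 closes an imprinted domain on chromosome 12 that opens with Dlk1, and the genes of this domain and its flanks did not share the direction of Dio3. Of 7 tested, 3 rose, 0 fell in edgeR, DESeq2 or limma-voom, with 0 lower also at an unadjusted p under 0.05, and the median log2 fold change was 0.33. Dlk1, which like Dio3 is expressed mainly from the paternal allele and encodes a Notch-like membrane protein, had 5.53, 4.82 and 5.21 CPM in cKO 1, 2 and 3, against 1.44, 0.66 and 1.19 CPM in control 2, 3 and 4. The groups were far apart, and Dlk1 rose by a log2 difference of 2.16 (SE 0.28, edgeR adjusted p = 0.00262). Begain, upstream of Dlk1, had 81.4, 63.1 and 57.6 CPM in cKO 1, 2 and 3, against 52.1, 37.9 and 35.0 CPM in control 2, 3 and 4, a log2 difference of 0.56 (SE 0.12, adjusted p = 0.0156), also without overlap. The maternally expressed noncoding RNA Rian only just passed, with 336, 296 and 387 CPM in cKO 1, 2 and 3, against 230, 334 and 335 CPM in control 2, 3 and 4 (log2 fold change 0.33, SE 0.09), and its call was lost under RLE scaling (adjusted p = 0.0786).

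The other genes of the domain did not pass. Meg3, the maternally expressed RNA at its imprinting control region, had a log2 difference of 0.43 (SE 0.15, adjusted p = 0.106) and ran with library set, with 559, 418 and 1629 CPM in cKO 1, 2 and 3 and 311, 1265 and 1530 CPM in control 2, 3 and 4. Mirg (-0.09, adjusted p = 0.808), Rtl1 (0.12, adjusted p = 0.886) and the flanking Ppp2r5c (0.00, adjusted p = 0.984) were near 0. The antisense transcript Dio3os was not analysed here. Without cKO 3 the Dlk1 call was lost (1.87, adjusted p = 0.0557), as was that of Begain, whose adjusted p was 0.0548 to 0.207 when any control or cKO 3 was left out. Rian kept its call in 1 of 6 such fits, the one without cKO 1.

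**Figure D5:**
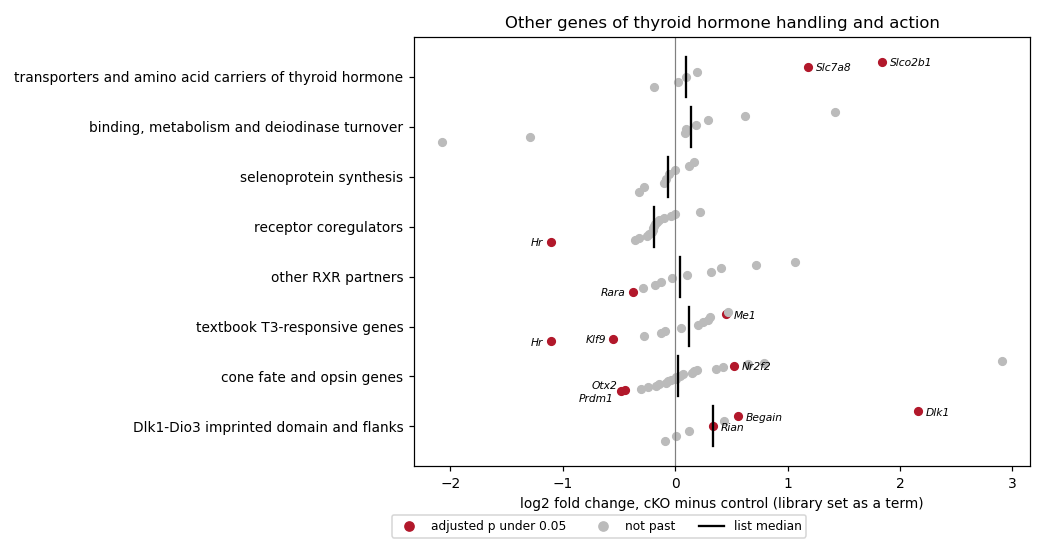
Log2 fold change, cKO minus control with library set as a term, of the tested genes in the 8 lists that are reported here. Red points passed adjusted p under 0.05 in edgeR and are named, grey points did not pass, and black lines are list medians. Hr and Klf9 lie on the lower side and Slco2b1, Slc7a8 and Dlk1 on the higher side, with list medians of -0.19 to 0.33.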

How the data were processed

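RNA from 6 retinas was sequenced. Per the labels' protocols, extraction used a Qiagen RNeasy kit and library construction an Illumina TruSeq RNA kit. The authors deposited raw counts of reads on each Ensembl gene, and the submitters' processing notes name STAR, HTSeq, edgeR and GRCm38 without versions. Rows that name no gene (5 per file, 26.41 to 28.76% of counts) stayed out of library sizes and tests. Reads in ambiguous or multiply aligned rows are not on genes, which lowers overlapping genes and close paralogs.

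GENCODE vM21 (GRCm38) named 37607 of the identifiers (95.99%) and gave exon lengths. In R 4.3.3, edgeR 4.0.16 kept 16691 genes (filterByExpr by group), scaled by TMM, and fitted genotype and library set with glmQLFit and glmQLFTest, 2-sided, Benjamini-Hochberg over all tested genes, threshold 0.05. Library set was split at 2.9% ambiguous counts, a technical measure, and 3 residual degrees of freedom remained. Standard errors came from the fold change and F statistic. On simulated counts for cKO against control, 95.5% of 200 genes changed by a log2 of 1 were recovered among 16557 genes, with 4.02% false calls. The simulation gave every gene the same dispersion, changed no low genes and held no sex effect. It therefore does not show the recovery of smaller changes, such as those of Thra, Rxra and Rxrg, or of more variable genes. Libraries were treated as separate animals. The members, lists and the library set term were chosen with earlier results of these data known.

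Named, except 1 gene not reported here, were all members, Lhx2, Pdgfra, list genes past the threshold (up to 5 a direction), the next 2 by p, all detected genes of the imprinted domain, and for each member the 3 genes of highest r (mean CPM of at least 2, log2 CPM with prior count 2). Alternatives were RLE or no scaling, other filters, DESeq2 1.42.0, limma-voom (limma 3.58.1), other covariates, the replicate number as a block, each library left out, and the longest transcript as gene length. Counting error is small for deeply counted genes but not for those of few reads, among them the members Dio2 and Slc16a10 and the list genes Slco2b1, Dlk1, Rtl1 and Ttr.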

Additional observations from a re-analysis of the deposited data

How the results depend on the processing

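With library set as a term, 1062 genes were higher and 939 lower in cKO retinas. With genotype alone 36 were higher and 0 lower (831 higher and 461 lower at an unadjusted p under 0.05, edgeR), and 0 members and 0 list genes were called in either direction (2 members, 6 list genes higher and 4 lower at an unadjusted p under 0.05). With sex added to the model 173 genes were higher and 63 lower, with 0 members higher and 1 lower, and 2 list genes higher and 0 lower (10 higher and 5 lower at an unadjusted p under 0.05). Sex and genotype cannot be told apart in set A. Without a filter 1592 genes were lower, and 13 list genes were higher and 12 lower. DESeq2 gave 1672 genes lower and 12 list genes lower. Gps2, Ncoa1, Sephs1 and Pde6c, which did not pass, did so under both of these alternatives, Gnat2 without a filter and Eefsec with DESeq2. The lowest and highest counts with 1 library left out were 176 and 1371 genes higher, 134 and 1336 genes lower, 0 and 2 members higher, 1 and 2 members lower, 1 and 9 list genes higher, and 0 and 10 list genes lower. The smallest counts came without cKO 3 for both directions over all genes, and the cause was not tested.

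The Dio3 fold change stayed between -2.14 and -1.63 over 15 alternatives. Label numbers 2 and 3 occur in both groups. Same-numbered libraries deviated together (r of 0.77 and 0.67), but each pair lies within 1 library set and only 2 numbers are shared. With the replicate number as a block in place of library set, 1 member was higher (Rxrg) and 2 lower, and Dio3 was at -1.81. Among members that did not pass, signs turned for Thrb (-0.11 with genotype alone), Dio2 (0.26 with sex, 0.09 with the block, 0.20 without control 2, 0.04 without cKO 1), Rxrb (-0.01 with RLE scaling or DESeq2, -0.05 with the block, -0.19 without control 2, -0.11 without cKO 1) and Slc16a10 (0.46 without control 2). Of other values, signs turned for Ppp2r5c (-0.03 with RLE scaling, DESeq2 or sex, -0.02 with no filter, -0.05 with genotype alone, -0.04 to 0.07 over the fits with 1 library left out), Meg3 (-0.25) and Slco4a1 (0.17) with genotype alone, Crym with sex (0.04), Mirg (-0.30 to 0.17 with 1 library left out, above 0 without cKO 3), and the set difference of Slc16a10 (-0.20 to 0.94 with 1 library left out, below 0 without control 2). Dio2 had no value at a mean CPM of at least 1. With the longest transcript as gene length, Rxrg made up 24.4% of the RXR level in cKO and 15.4% in control retinas. Of the 3 genes most like Rxrg, 1 (Rbpms2) was also among the top 3 with set means subtracted. For each of the other members no gene stayed among the top 3. The gene closest to Dio3 was then Obsl1, whose r with Dio3 was only 0.26 as measured.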

Other observations

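Some further genes of hormone transport and of the thyroid axis are given here for their levels alone. Of the listed transporters, Slco1c1, a carrier of T4 at brain vessels and in astrocytes, was at 0.21, 0.19 and 0.75 CPM in cKO 1, 2 and 3 and 0.044, 0.18 and 0.17 CPM in control 2, 3 and 4. The levels were too low to be tested. Tshb and Gh, pituitary hormone genes regulated by T3, were at or below 0.060 CPM in all 6 libraries, and Gh had no read. Serpina7, the gene of thyroxine-binding globulin, had no read in any library. Ttr, which encodes a carrier of T4 and is also a pigment epithelium transcript, had 2.55, 1.77 and 1.67 CPM in cKO 1, 2 and 3 and 1.64, 0.12 and 0.27 CPM in control 2, 3 and 4, and did not pass (log2 fold change 1.42, edgeR adjusted p = 0.128). These genes were chosen after their values were seen.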
